A study of Mus musculus with 11 samples.

Results

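The genes described here are 10 that carry glucose into cells, start and finish glycolysis, and move lactate out again: Slc2a1, Slc2a4, Txnip, Hk1, Hk2, Pkm, Ldha, Ldhb, Slc16a1 and Slc16a8. They were taken by name from the 38393 genes in the count files, and all 10 were among the 15767 genes that passed the filter of at least 1 CPM (the counts of a gene scaled to a common library total) in at least 5 of the 11 libraries. RNA was sequenced from whole eyes of mice of the C57BL/6 background (C57Bl/6J in the methods) at 1 to 2 months of age. By the methods the lens and cornea were removed, and retina, retinal pigment epithelium (RPE), choroid, sclera and ciliary body were kept. Transcripts of lens and of cornea and conjunctiva were still found, as given below. There were 5 wild type libraries (WT1 to WT5) and 6 libraries from mice that lack miR-211 in every cell (miR-211−/−, KO1 to KO6). The study asked which transcripts depend on this microRNA before cones are lost, and its methods give all KO animals as male and the WT animals as 2 males and 3 females. The sex behind each library was not used here, and its part in any difference was not tested.

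Photoreceptors turn most of their glucose into lactate even when oxygen is plentiful, a habit known as aerobic glycolysis. Glucose reaches them from the choroid through the RPE by the transporter GLUT1 (Slc2a1), is trapped by hexokinases (Hk1, Hk2), becomes pyruvate through pyruvate kinase (Pkm) and is converted to lactate by lactate dehydrogenase (Ldha, Ldhb). Lactate leaves through monocarboxylate transporters, of which MCT1 (Slc16a1) is widespread and MCT3 (Slc16a8) belongs to the basolateral side of the RPE, while TXNIP is an arrestin-like protein that removes glucose transporters from the cell surface.

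The deleted microRNA and its paralogue miR-204 are shown because they recognise transcripts through the same seed, bases 2 to 8 counted from the 5′ end, in capitals. The mature sequences are those of RefSeq (GRCm38.p6), at chr7:64205831-64205852 and chr19:22750610-22750631, both on the plus strand.
miR-211-5p: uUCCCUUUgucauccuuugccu
miR-204-5p: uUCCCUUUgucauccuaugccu
They differ by 1 base, U17A, with miR-211-5p written first. The complement of the seed, AAAGGGA, or its form shifted by 1 base, AAGGGAA, was searched in the 3′ UTR of each gene (1 transcript a gene, sense strand), and 3318 of the 14558 genes searched (22.8%) held a match. Of the 10 genes, 1 held a match, Txnip. Its AAAGGGA begins at base 343 of a 3′ UTR of 1328 bases, within chr3:96560861-96560889 (GRCm38, plus strand), where the capitals mark the match.
Txnip 3′ UTR: gtttttgttttAAAGGGActtttaaattg
A match of letters is not evidence of binding. Over all genes searched, the median log2 fold change was 0.02 with a match and -0.00 without.

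The loss of miR-211 could not be read from these libraries, since its precursor had an expected count of 0 in all 11, WT included. Its host gene Trpm1, a cation channel gene of bipolar cells and melanocytes, stood at 430 ± 67.2 CPM in WT and 433 ± 19.1 CPM in KO (SD, n = 5 and 6). The depth ranged from 20282279 to 36317730 assigned read pairs a library. The eye's own cell types were well represented, with summed rod markers at 27568 to 43310 CPM, cone markers at 785 to 934 CPM and RPE markers at 1797 to 2333 CPM over the 11 libraries. Tissue that should be absent or variable also appeared. Summed lens crystallin and lens fibre genes reached 76558 CPM in WT4, 17453 in KO3 and 2706 in KO6, and at most 64.9 CPM elsewhere. Summed skeletal muscle genes ranged from 1138 CPM (KO5) to 11290 CPM (WT1). Summed genes of cornea and conjunctiva ranged from 1167 CPM (WT3) to 8770 CPM (KO2), although the methods state that the cornea was removed. Within that list Krt12 alone ranged from 4.26 CPM (WT1) to 3514 CPM (KO1). In bulk tissue, fewer cells of a type and less RNA per cell cannot be told apart.

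None of the 10 genes passed the threshold between genotypes (edgeR likelihood-ratio test, adjusted p under 0.1), and among all genes tested 1 did, which is 0.00634%. None had an unadjusted p under 0.05 either, against 2.09% of all genes tested, and edgeR's quasi-likelihood test and DESeq2 also called 0 of the 10. No gene of the 10 had WT and KO libraries that did not overlap, a state found in 0.184% of all genes. The estimate was below 0 in KO for 7 of the 10 and above 0 for 3, with a median log2 fold change of -0.08, beside a median of 0.00 and 48.9% below 0 over all genes tested. The size of the estimates fell into 2 kinds. Slc2a4 and Txnip were lower by more than 0.6 on the log2 scale with wide intervals, and the other 8 lay within 0.19 of 0 with narrower ones. The standard error (SE) of those 8 ran from 0.11 (Ldhb) to 0.18 (Pkm), beside a median of 0.15 over all genes tested.

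**Figure D1:**
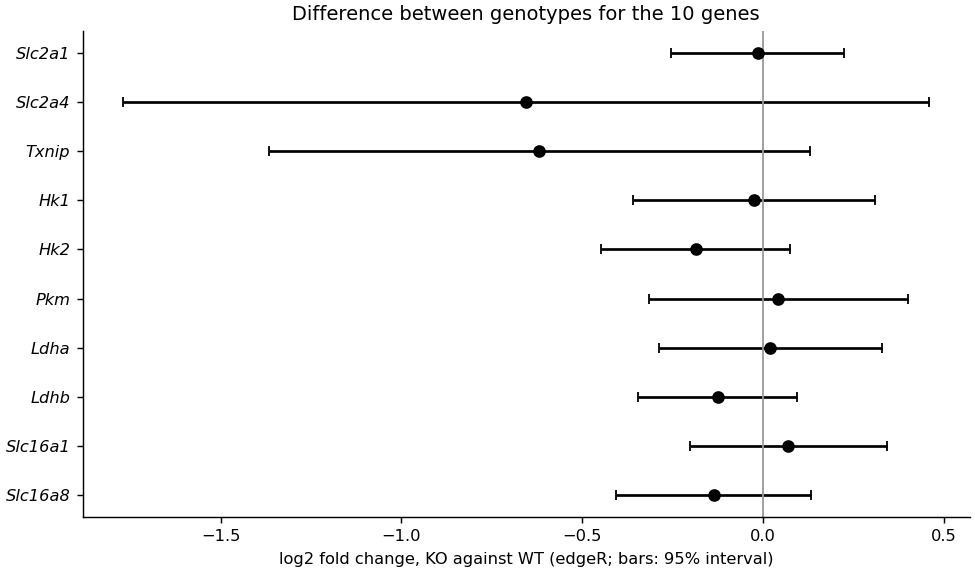
Log2 fold change of KO against WT for each of the 10 genes (points), with 95% intervals (bars) from edgeR on 5 WT and 6 KO libraries. All 10 intervals include 0, and those of Slc2a4 (-1.77 to 0.46) and Txnip (-1.37 to 0.13) are the widest.

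Slc2a1 (ENSMUSG00000028645, chr4:119108711-119137983, GRCm38) encodes GLUT1, the transporter that supplies the RPE and neural retina. It was the steadiest of the 10 genes. WT libraries 1 to 5 stood at 317, 317, 342, 344 and 315 CPM, and KO libraries 1 to 6 at 296, 291, 369, 319, 340 and 326 CPM. The lowest and the highest library were both KO, and the group means were 327 ± 14.6 and 324 ± 28.8 CPM. The log2 fold change was -0.01 (SE 0.12, adjusted p = 1.00), with a 95% interval from -0.25 to 0.22. Its sign turned to 0.03 when libraries were scaled by their total alone. Over the 11 libraries the coefficient of variation (CV) of Slc2a1 was 6.90%, and 12.5% of all genes tested had a lower one. The genes closest to it in log2 CPM were Bex3 (Pearson r = 0.927), Cyp26a1 (r = 0.924) and Tuba1a (r = 0.918).

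Slc2a4 (ENSMUSG00000018566, chr11:69942539-69948188, GRCm38) encodes GLUT4, the insulin-responsive transporter of skeletal muscle, heart and fat. It varied more than any other of the 10 genes. WT libraries 1 to 5 stood at 71.8, 49.1, 7.82, 31.1 and 17.5 CPM, and KO libraries 1 to 6 at 52.1, 32.2, 13.2, 16.3, 7.86 and 13.5 CPM. Both genotypes held libraries near 8 CPM and above 50 CPM, so that the ranges overlapped almost completely. The log2 fold change was -0.66 (SE 0.57, adjusted p = 1.00), with an interval from -1.77 to 0.46. A single library moved it, from -0.23 without WT1 to -1.09 without KO1. The CV was 74.3%, and 97.9% of all genes tested had a lower one.

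The variation of Slc2a4 ran alongside that of skeletal muscle transcripts. The summed level of the 10 muscle genes (Acta1, Ckm, Myh1, Myh2, Myh4, Mylpf, Tnnt3, Tnni2, Actn3 and Atp2a1) was 11290, 10440, 1423, 6578 and 3851 CPM in WT1 to WT5 and 11235, 6400, 2565, 3124, 1138 and 2423 CPM in KO1 to KO6. The 5 libraries with the most muscle RNA, WT1, KO1, WT2, WT4 and KO2, were also the 5 with the most Slc2a4. Per 1000 CPM of muscle transcripts, Slc2a4 amounted to 5.17 ± 0.760 CPM in WT and 5.42 ± 0.790 CPM in KO, and it stayed between 4.55 and 6.91 CPM in all 11 libraries while the muscle sum itself varied 9.92-fold. The muscle list as a whole had an estimate below 0 in KO for 10 of 10 genes, from -0.43 (Mylpf) to -0.68 (Myh1), with 0 past the threshold. Over all genes tested, 48.9% were below 0. The genes whose log2 CPM most resembled that of Slc2a4 over the 11 libraries were Des, which encodes the muscle intermediate filament desmin (Pearson r = 0.997), Jsrp1, of the muscle junctional sarcoplasmic reticulum (r = 0.996), and Scn4b, a sodium channel subunit (r = 0.996). These points share libraries and scaling factors, and r is given as a description. Throughout, the closest genes are those with the highest r among all genes tested, so a high r follows from the choice.

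Adipocyte transcripts varied in a similar manner, from 13.9 to 448 CPM in WT and from 13.0 to 234 CPM in KO for the sum of 8 genes. Of the 7 that were tested, 7 had an estimate below 0 in KO (48.9% of all genes tested did), with a median of -1.94. Of these 7, 0 passed the threshold, while Lep was at 0 in some libraries. What muscle and fat contribute to the genotype estimate of Slc2a4 was not tested.

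**Figure D2:**
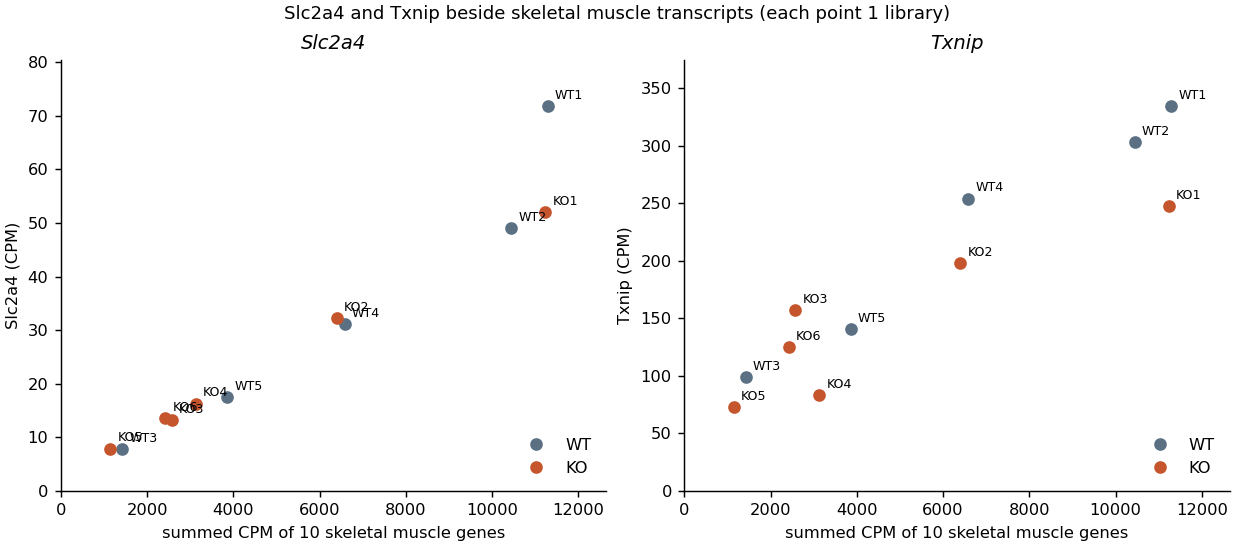
CPM of Slc2a4 (left) and Txnip (right) against the summed CPM of 10 skeletal muscle genes, with 1 labelled point a library. Slc2a4 lies close to a line through the origin, from 7.82 CPM in WT3 to 71.8 CPM in WT1, and Txnip rises with muscle RNA from 72.5 CPM in KO5 to 334 CPM in WT1 with more scatter.

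Txnip (ENSMUSG00000038393, chr3:96557957-96561883, GRCm38) encodes thioredoxin-interacting protein, which restrains glucose uptake and binds thioredoxin. WT libraries 1 to 5 stood at 334, 303, 99.1, 254 and 141 CPM, and KO libraries 1 to 6 at 248, 198, 157, 83.0, 72.5 and 125 CPM. All 6 KO libraries lay below the WT median of 254 CPM, but 4 of them lay within the WT range. The log2 fold change was -0.62 (SE 0.38, adjusted p = 1.00), with an interval from -1.37 to 0.13, and the fold was 0.651 (0.388 to 1.09). The sign was the same under all 23 alternatives, from -0.83 without KO1 to -0.44 without WT1, with the smallest adjusted p at 0.395.

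The libraries came in 2 series, known from the way their columns are named in a table of the study, one by mouse number (WT1, WT2, KO1, KO2 and KO3) and one by age (the other 6). In the first series Txnip stood at 303 and 334 CPM in WT and at 157 to 248 CPM in KO. These did not overlap, but with 2 and 3 libraries the same held for 20.4% of all genes tested, and for Hk1, Ldha and Ldhb besides Txnip among the 10. In the second it stood at 99.1, 254 and 141 CPM in WT and at 72.5 to 125 CPM in KO, where WT3 fell inside the KO range. In this series 11.9% of all genes did not overlap, among them Hk2, Pkm and Ldha. The log2 fold changes within the series were -0.67 and -0.80, with adjusted p = 0.999 in each fit. With the series as a covariate the estimate was -0.75 (adjusted p = 0.395). Slc2a4 gave -0.90 and -0.57 within the series, and -0.72 with the covariate.

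Txnip and Slc2a4 shared the same 5 highest libraries and had r = 0.92 over the 11. The ratio to muscle was less constant for Txnip, at 22.0 to 69.6 CPM per 1000 CPM of muscle transcripts (40.7 ± 16.7 in WT and 42.7 ± 18.4 in KO), and the part of muscle in the genotype estimate of Txnip was not tested. The closest genes to Txnip were Lpin3, a lipin phosphatidate phosphatase (r = 0.986), Rflnb (r = 0.985) and Epdr1 (r = 0.983). When WT1 and KO1, which hold the most muscle RNA, were left out together, Txnip gave -0.65 and Slc2a4 -0.67. The remaining libraries still differed in summed muscle transcripts, from 1423 to 10440 CPM in WT and from 1138 to 6400 CPM in KO. Leaving out WT1 and KO1 is therefore no test of the part of muscle.

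TXNIP transcription is known to rise with glucose through MondoA and ChREBP (Mlxip and Mlxipl) acting with Mlx at a carbohydrate response element. The RefSeq promoter window of Txnip, from 250 bases before to 50 after the start site, held such a pair of boxes, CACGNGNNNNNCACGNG searched on both strands, beginning 85 bases before the start site. This form was present in 16 of 32851 promoter windows of the same length (0.0487%). As the form was chosen with Txnip in view, its match there and its share over all windows are a description only. The stretch is shown because the factors that bind such an element are among the genes described next. It lies at chr3:96557866-96557894 (GRCm38.p6, plus strand) with the element in capitals.
Txnip promoter: actgtgCACGAGGGCTGCACGAGcctcca
Of its known relatives and regulators, 6 of 7 tested had an estimate below 0 in KO, beside 48.9% of all genes tested. Of the 7, 0 passed the threshold. Arrdc2, another alpha-arrestin, stood at 35.9 ± 11.3 CPM in WT and 21.9 ± 8.16 CPM in KO, with a log2 fold change of -0.72 (SE 0.32, adjusted p = 1.00). Mlxipl gave -0.79 (SE 0.50), with 3.89 to 26.2 CPM in WT and 3.58 to 15.2 CPM in KO, while Mlxip (-0.05) and Mlx (-0.03) stayed near 0. Thioredoxin itself (Txn1) gave 0.04 (SE 0.25).

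**Figure D3:**
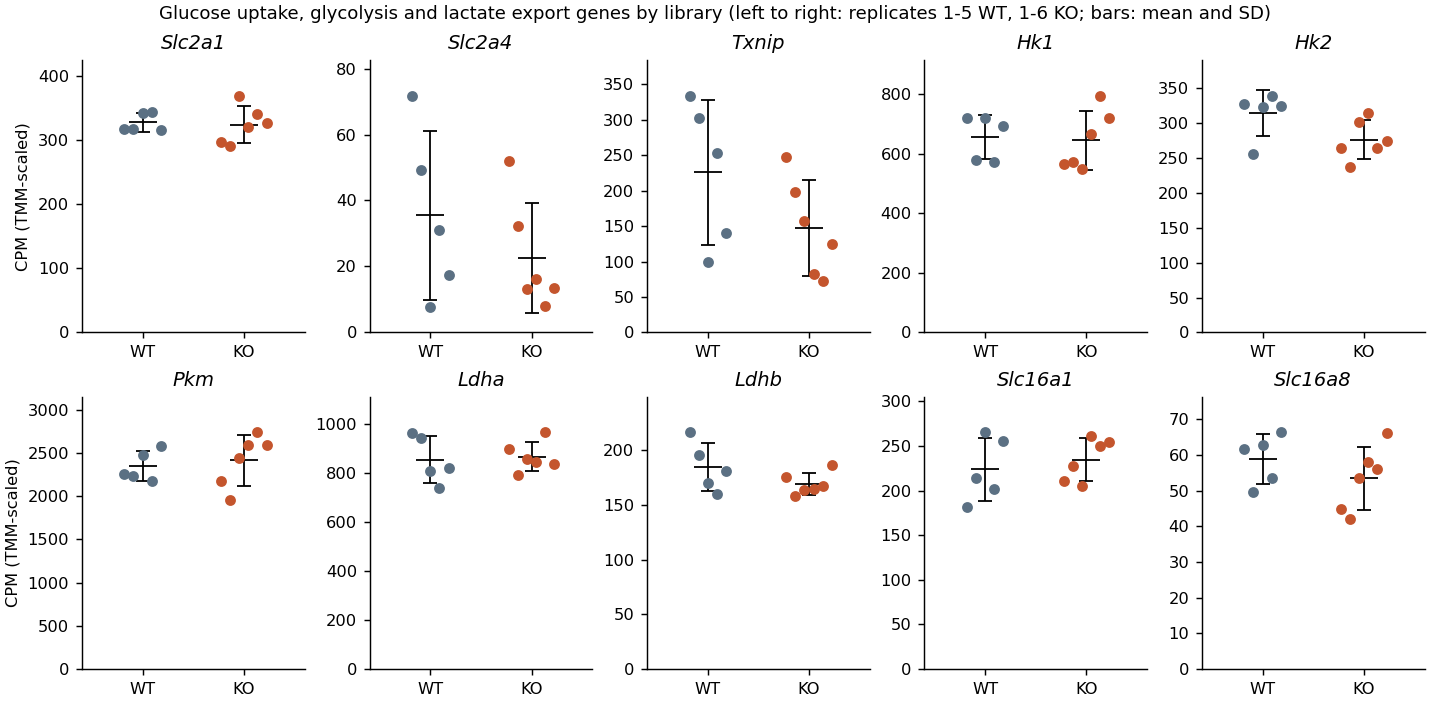
CPM of each of the 10 genes in the 5 WT libraries (grey-blue, replicates 1 to 5 from left to right) and the 6 KO libraries (orange, replicates 1 to 6), with the mean and SD as bars and every axis starting at 0. The range within each genotype exceeds the distance between the means for all 10 genes, most visibly for Slc2a4 and Txnip, and Slc2a1 is nearly level at 291 to 369 CPM.

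Hexokinases commit glucose to the cell by phosphorylation. Hk1 (ENSMUSG00000037012, chr10:62268855-62379908, GRCm38), the widespread form, stood at 719, 578, 719, 571 and 691 CPM in WT1 to WT5 and at 564, 572, 547, 665, 794 and 720 CPM in KO1 to KO6. The lowest and the highest library were both KO. The log2 fold change was -0.03 (SE 0.17, interval -0.36 to 0.31, adjusted p = 1.00), and its sign changed with scaling by library total alone (0.02) and between the series (-0.21 and 0.14). Closest to Hk1 in pattern were Tmem150c (r = 0.966), Sirt7 (r = 0.965) and Klhl36 (r = 0.957).

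Hk2 (ENSMUSG00000000628, chr6:82725025-82774454, GRCm38) is the inducible form that photoreceptors use. It stood at 327, 256, 324, 340 and 325 CPM in WT1 to WT5 and at 264, 237, 301, 315, 265 and 274 CPM in KO1 to KO6. WT2 was far below the other 4 WT libraries, which lay within 324 to 340 CPM. Of the 6 KO libraries, 1 (KO2) was below every WT library, and the rest lay within the WT range. The means were 314 ± 33.0 and 276 ± 28.1 CPM, and the log2 fold change was -0.19 (SE 0.13, adjusted p = 1.00), with an interval from -0.45 to 0.07. It stayed between -0.25 and -0.13 under all 23 alternatives, none of which gave an adjusted p below 0.820. Without WT2 the estimate was -0.25. Closest to Hk2 in pattern were Prg4 (r = 0.906), Trp53i11 (r = 0.893) and Sardh (r = 0.886).

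Pkm (ENSMUSG00000032294, chr9:59656368-59679375, GRCm38) encodes pyruvate kinase M, whose splice forms M1 and M2 share these gene-level counts and were not separated. WT libraries stood at 2258, 2237, 2481, 2181 and 2582 CPM and KO libraries at 2174, 1956, 2437, 2596, 2741 and 2596 CPM. Both the lowest and the 3 highest libraries were KO. KO differed from WT by a log2 fold change of 0.04 (SE 0.18, interval -0.32 to 0.40, adjusted p = 1.00), and it was 0.0026 without KO5 and 0.096 without KO2. The genes nearest to Pkm in pattern were Fbxo44 (r = 0.977) and the photoreceptor-related genes Rtbdn (r = 0.974) and Impdh1 (r = 0.958).

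Ldha (ENSMUSG00000063229, chr7:46841475-46855627, GRCm38) encodes the lactate dehydrogenase subunit that favours lactate formation. WT libraries stood at 963, 943, 807, 737 and 822 CPM and KO libraries at 898, 794, 856, 847, 967 and 836 CPM. Over all 11 libraries the values of the genotypes were interleaved, and the log2 fold change was 0.02 (SE 0.16, interval -0.29 to 0.33, adjusted p = 1.00). Its sign differed between the series (-0.17 and 0.17). In the mouse-number series WT (943 to 963 CPM) lay above KO (794 to 898 CPM). In the age series WT (737 to 822 CPM) lay below KO (836 to 967 CPM). Such a lack of overlap held for 20.4% and 11.9% of all genes tested in the respective series. The gene most like it was Tpi1, the glycolytic triosephosphate isomerase (r = 0.956), followed by Tmem129 (r = 0.877) and Wdr13 (r = 0.861).

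Ldhb (ENSMUSG00000030246, chr6:142490249-142507957, GRCm38) encodes the subunit found in oxidative tissues. WT libraries stood at 216, 196, 170, 160 and 181 CPM and KO libraries at 176, 158, 164, 165, 167 and 186 CPM. WT1 and WT2 were above every KO library, and the remaining WT libraries lay among the KO values. KO differed from WT by -0.13 on the log2 scale (SE 0.11, interval -0.35 to 0.09, adjusted p = 1.00), and it was -0.31 in the first series, 0.02 in the second and -0.063 without WT1. Closest to Ldhb in pattern were Thap11 (r = 0.936), Tnfrsf1b (r = 0.908) and Adck1 (r = 0.905).

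Hypoxia-inducible factors are known to act on Ldha through boxes with the core ACGTG. Searched on both strands of the RefSeq promoter windows, this core occurred in 19.6% of all 32851 windows. Of the 12 windows of 9 genes, 6 windows held it, from 6 genes, and Ldha had 5 matches. As CACGTG reads the same on both strands, its occurrences count once for each strand. The stretch of Ldha with 3 of these matches is shown at chr7:46845752-46845778 (GRCm38.p6, plus strand), with ACGTG and its complement in capitals.
Ldha promoter: cctaCACGTGggttcccgCACGTccgc
Hif1a stood at 510 ± 69.6 CPM in WT and 566 ± 52.5 CPM in KO (log2 fold change 0.15, SE 0.16, adjusted p = 1.00), and of the 5 hypoxia genes tested 0 passed the threshold, 2 below 0 and 3 above.

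Slc16a1 (ENSMUSG00000032902, chr3:104638668-104658462, GRCm38) encodes MCT1, which carries lactate and pyruvate with a proton. WT libraries stood at 182, 214, 265, 202 and 255 CPM and KO libraries at 210, 227, 205, 261, 250 and 255 CPM. All 6 KO libraries lay inside the WT range, and the log2 fold change was 0.07 (SE 0.14, interval -0.20 to 0.34, adjusted p = 1.00). It was 0.0033 without WT1 and 0.14 without WT3. Its pattern was opposite to that of Txnip (r = -0.86) and Slc2a4 (r = -0.77). Pkm (r = -0.78 and -0.75) and Hk1 (r = -0.58 and -0.49) also ran opposite to Txnip and Slc2a4. The genes most similar to Slc16a1 were Impact (r = 0.991), Cry1, a repressor of the circadian clock (r = 0.986), and Chrm2 (r = 0.979).

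Slc16a8 (ENSMUSG00000032988, chr15:79251014-79254761, GRCm38) encodes MCT3 of the RPE. WT libraries stood at 61.7, 49.5, 62.8, 53.5 and 66.4 CPM and KO libraries at 45.0, 42.2, 53.5, 58.0, 56.0 and 66.1 CPM. KO1 and KO2 were below every WT library, and the other 4 were within the WT range. The log2 fold change was -0.14 (SE 0.14, interval -0.41 to 0.13, adjusted p = 1.00), and it was -0.25 in the mouse-number series and -0.02 in the age series. It was -0.077 without KO2 and -0.21 without KO6. Its nearest genes were Pltp (r = 0.965), U2af2 (r = 0.936) and Slc13a3 (r = 0.932).

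Levels of different genes were compared on the FPKM scale (fragments scaled by transcript length and by the mapped fragments of the library). Pkm was the most abundant, with a median of 1018 FPKM over the 11 libraries, and was above Ldha (563 FPKM) in every library, 1.51 to 2.01 times. Ldha in turn was 2.22 to 3.14 times Hk1 (231 FPKM). Below them came Ldhb (140 FPKM) and Slc2a1 (126 FPKM), which could not be ordered, since Ldhb was higher in 8 of 11 libraries with overlapping ranges. Hk1 exceeded Ldhb in 11 of 11 libraries. The ranges of the 2 genes overlapped across libraries only because Hk1 in WT4 (160 FPKM) was below Ldhb in WT1 (173 FPKM).

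Hk2 (73.8 FPKM), Txnip (57.4 FPKM) and Slc16a1 (52.1 FPKM) formed the next level. Slc2a1 was 1.58 to 2.07 times Hk2 in every library, whereas Hk2 exceeded Txnip in only 6 of 11 and Txnip exceeded Slc16a1 in 6 of 11. Slc16a1 lay above Slc16a8 (33.4 FPKM) in 11 of 11 libraries with separate ranges. Slc2a4 was the lowest at 7.34 FPKM, and Slc16a8 exceeded it in 11 of 11 libraries with ranges that overlapped.

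**Figure D4:**
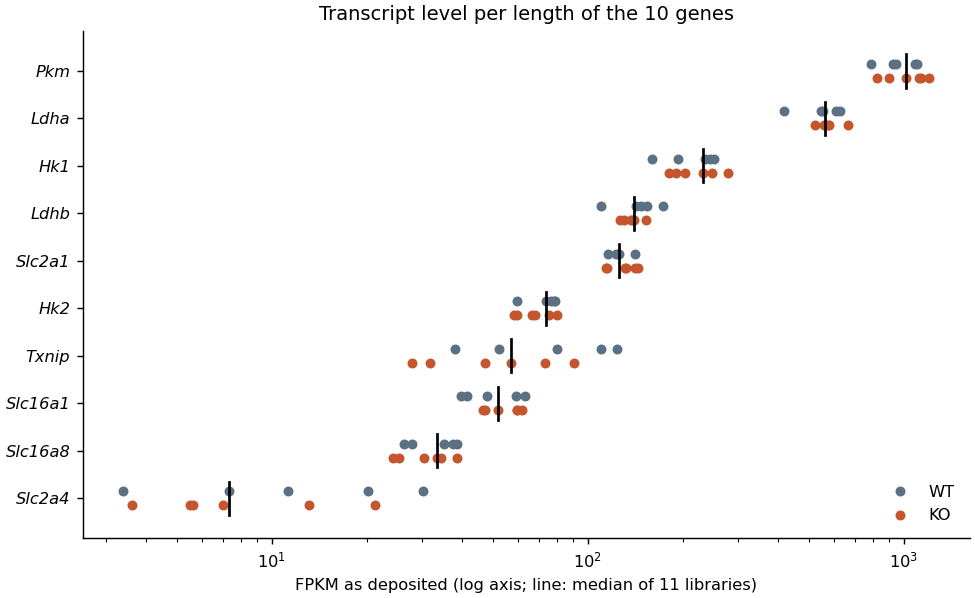
Deposited FPKM of the 10 genes on a log axis, ordered by the median of 11 libraries (black line), with WT libraries in grey-blue and KO libraries in orange. Pkm (median 1018) and Ldha (563) stand apart at the top, Slc2a4 (7.34) is lowest, and only Txnip and Slc2a4 spread widely along the axis.

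Isoform use was compared as the share of 1 gene in the FPKM sum of a pair, with an exact permutation test of both sides over all assignments of genotype to the libraries, whose smallest possible p is 0.00433. Ldha made up 78.5, 79.8, 79.7, 79.1 and 78.8% of Ldha plus Ldhb in WT1 to WT5, and 80.7, 80.5, 81.1, 80.8, 82.6 and 78.7% in KO1 to KO6. Of the 6 KO libraries 5 exceeded every WT library, and KO6 fell among the WT values. The means were 79.2 ± 0.568% and 80.7 ± 1.28%, a difference of 1.57 percentage points (exact p = 0.0303), which did not pass after Benjamini-Hochberg adjustment over the 4 shares compared (adjusted p = 0.121). With genotypes exchanged only within the series the exact p was 0.045, and without KO5, whose share was the highest, the difference was 1.19 points (exact permutation p = 0.0556). The exact p also exceeded 0.05 when WT1, WT4, WT5, KO3 or KO4 was left out, at 0.0556 to 0.0667.

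The other 3 shares did not pass before adjustment either. Slc16a8 made up 39.7 ± 3.66% of Slc16a8 plus Slc16a1 in WT and 36.1 ± 2.93% in KO (exact p = 0.0996, adjusted over the 4 shares 0.199), with WT1 at 45.8% and KO2 at 31.7% as the extremes. Of the 6 KO libraries 4 were below every WT library. Hk2 made up 25.6 ± 3.34% of the hexokinase pair in WT and 23.7 ± 3.48% in KO (exact p = 0.381), with 3 of the 6 KO libraries below every WT library. The difference of -1.91 points was -0.44 without WT4 (exact p = 0.838) and -3.06 without KO3 (exact p = 0.127), with WT4 at 31.5% and KO3 at 29.4% as the highest libraries. These are also the 2 libraries with the most lens transcripts, whose part in this share was not tested. Slc2a4 made up 2.35 to 19.4% of the transporter pair in WT and 2.50 to 15.6% in KO, a difference in means of -3.18 points (exact p = 0.394). It was -0.84 without WT1 (exact p = 0.8) and -5.11 without WT3 (exact p = 0.19).

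**Figure D5:**
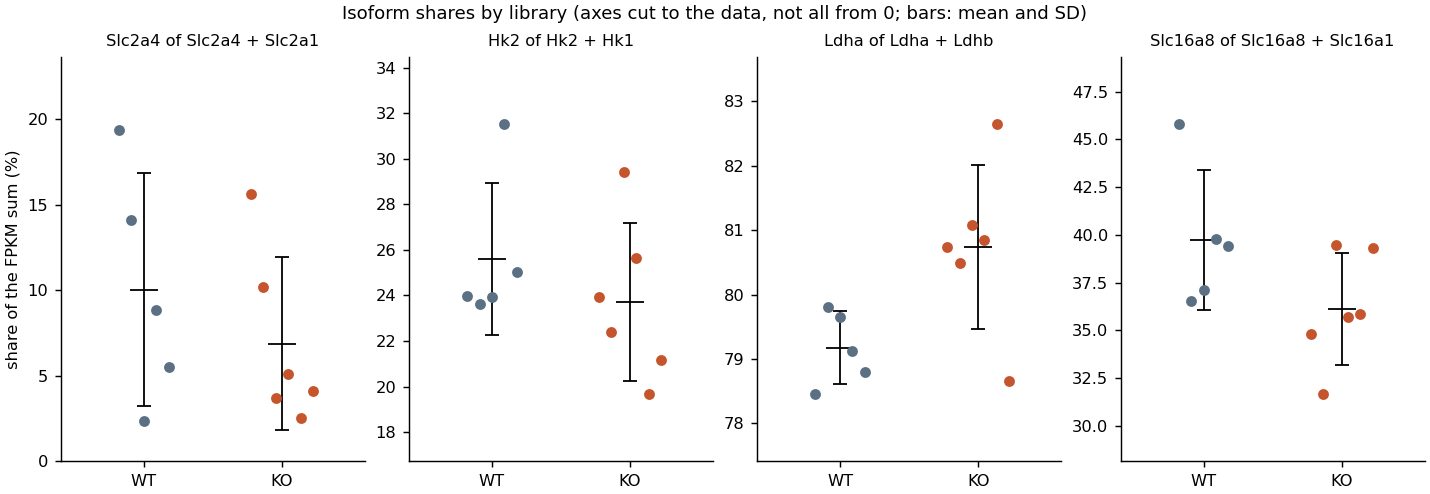
Share of the first-named gene in the FPKM sum of each pair, in percent, for 5 WT and 6 KO libraries with mean and SD. For Ldha, 5 of 6 KO libraries (80.5 to 82.6%) lie above the highest WT library (79.8%) on an axis that does not start at 0. For Slc16a8, 4 of 6 KO libraries lie below the lowest WT library (36.6%). For Hk2, 3 of 6 lie below the lowest WT library (23.6%), and for Slc2a4 all 6 lie within the WT range.

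The rest of the pathway gave a similar picture. Of 58 further genes listed for transport, glycolysis, its regulators, lactate and pyruvate handling, TXNIP partners and hypoxia, 50 passed the filter, 0 passed the threshold and 2 had an unadjusted p under 0.05. The estimate was below 0 in KO for 31 and above 0 for 19, with a median of -0.03. Over all genes tested, 48.9% were below 0. The count of 31 moved to 24 when libraries were scaled by their total alone. For the glycolytic steps with several genes on this list, the most abundant forms were Gapdh (2023 ± 216 FPKM), Aldoa (1470 ± 216 FPKM) and Eno1 (948 ± 175 FPKM). They gave log2 fold changes of -0.03, -0.05 and 0.14. Pgk1 (337 ± 29.2 FPKM), Pgam1 (299 ± 49.0 FPKM) and Pfkp (159 ± 28.5 FPKM) gave 0.02, 0.17 and 0.09. The MCT chaperone basigin (Bsg) gave -0.07.

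Of the glycolytic enzymes Pgam2, Eno3 and Pfkm had the lowest estimates, none past the threshold. Pgam2, the muscle phosphoglycerate mutase, stood at 90.1 ± 57.9 CPM in WT and 49.5 ± 37.4 CPM in KO (log2 fold change -0.86, SE 0.58, adjusted p = 1.00). Eno3, the muscle enolase, gave -0.54 (SE 0.51), and Pfkm, the muscle phosphofructokinase, -0.31 (SE 0.29). Other forms that muscle also uses lay near 0, with Aldoa at -0.05, Pkm at 0.04 and Ldha at 0.02. Pfkfb1, a liver and muscle form of the enzyme that sets fructose 2,6-bisphosphate, gave -0.51 (SE 0.36) at 3.22 ± 1.39 and 2.27 ± 0.881 CPM. Among the other glucose transporters Slc2a3 (GLUT3 of neurons) was the most abundant at 21.9 ± 3.79 FPKM and gave 0.15 (SE 0.13), and Slc2a12 (GLUT12) stood at 12.2 ± 2.19 CPM in WT and 9.36 ± 1.11 CPM in KO, with -0.39 (SE 0.16, adjusted p = 1.00).

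Set against all genes tested, 7 of the 10 had a CV over the 11 libraries below the median of 13.6%. Slc2a4 (74.3%) and Txnip (49.4%) stood far above it, and Slc16a8 was just above at 14.6%. The highest library exceeded the lowest 9.18 times for Slc2a4 and 4.61 times for Txnip, and 1.27 to 1.57 times for the other 8, beside a median of 1.55 over all genes.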

How the data were processed

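Read pairs were sequenced from total RNA of 5 WT and 6 KO eyes. The authors quantified genes of the Gencode M4 annotation with RSEM 1.2.19 and deposited, for each library, the expected counts, which are not scaled, and FPKM, which is scaled by transcript length and mapped fragments. The genome build behind release M4 and the strand of the libraries are not given in the sources used here. Expected counts were rounded, scaled by TMM and tested with edgeR 4.0.16 in R 4.3.3 (likelihood-ratio test, genotype as the only term, at least 1 CPM in at least 5 libraries, Benjamini-Hochberg adjustment over 15767 genes, threshold 0.1), since the study's methods name edgeR, this filter and this threshold. CPM use TMM-scaled totals, log2 CPM a prior count of 2, and 95% intervals 1.96 SE. FPKM served for levels and isoform shares, which were compared by exact permutation (scipy 1.17.1). The scripts were tested on simulated data.

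Symbols and positions came from Gencode M21 (GRCm38), which matched 36639 of 38393 identifiers, and sequences from RefSeq. Libraries were assigned to the 2 series by matching their counts over 63 genes to the named columns of a supplementary table; the ratio of counts to the best column had a CV of at most 0.2008%, and to the next best of at least 24.5%. The authors' own comparisons and their values were not used. The 10 genes, lists and alternatives were chosen with earlier results of these data known. Besides the 10, genes were named by rule: other pathway genes with an unadjusted p under 0.05 or an absolute log2 fold change of at least 0.5, the most abundant form of an enzyme step, and the 3 genes closest to each of the 10 in log2 CPM. Pfkm, Mlxip, Mlx, Txn1, Hif1a, Gapdh and Bsg were added after their values were seen. Marker lists for Müller glia, endothelium, blood, and cornea and conjunctiva were also summed. With 5 and 6 animals, p-values set the genotype difference against the spread between these animals.

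The results were recomputed with DESeq2 1.42.0, with the quasi-likelihood test of edgeR, with other scaling factors, count filters and thresholds, with a replicate block, with a term for the series, and without single libraries. After the data were seen, fits within each series and without WT1 and KO1 together were added. The lowest depth was 20282279 read pairs.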

Additional observations from a re-analysis of the deposited data

Results flagged for a closer look

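Of 28 groups of values checked, 2 held a library far from the rest, and chance alone gives such a gap in about 1 of 20 groups. In Hk2, WT2 was the lowest WT library at 256 CPM, and its gap to the next made up 0.828 of the WT range of log2 CPM, above the critical value of 0.71 for 5 samples. Without WT2 the log2 fold change of Hk2 was -0.25 in place of -0.19. In the share of Hk2 in the hexokinase pair, WT4 was the highest WT library at 31.5%, with a gap of 0.822 of the WT range. WT4 is also the library with the most lens transcripts (76558 CPM), whose part was not tested.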

How the results depend on the processing

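No alternative brought any of the 10 genes or of the further pathway genes past the adjusted threshold. Over all genes the call count of 1 became 0 with the quasi-likelihood test, 2 with DESeq2, 2 with RLE factors, 2 with at least 1 count in any library, 10 with the replicate block, 10 with the series as a covariate, 7 within the mouse-number series, 38 within the age series, and 1 to 11 with single libraries left out (11 without KO1). Without WT1 and KO1 it was 4. The count of the 10 genes with an unadjusted p under 0.05, 0 as reported, became 1 with the series as a covariate and 1 within each series (Txnip in each), and 0 to 2 with single libraries left out (Txnip and Slc2a4 without KO1). Signs near 0 turned: Slc2a1 was 0.034 by library size only, 0.0076 within the mouse-number series and -0.056 to 0.014 with single libraries left out. Hk1 was 0.018 by library size only, 0.14 within the age series, 0.044 without WT1 and KO1, and -0.095 to 0.016 with single libraries left out. Ldha was -0.17 within the mouse-number series and -0.019 to 0.067 with single libraries left out, Pkm -0.038 within the mouse-number series, and Ldhb 0.023 within the age series. The Ldha share difference was 1.98 points with the replicate block (exact p = 0.0625, the smallest 5 pairs allow), 1.39 without WT1 and KO1 (exact p = 0.0952), and 1.19 to 1.98 with single libraries left out, of which 6 gave an exact p above 0.05 (without WT1, WT4, WT5, KO3, KO4 or KO5). The Slc16a8 share difference ranged from -4.39 (without WT2) to -2.08 with single libraries left out, with -4.26 and an exact p of 0.0476 without KO3, and was -1.82 without WT1 and KO1. The causes were not tested. Same-numbered libraries were not shown to be paired, since their deviations correlated at 0.54, 0.63, -0.33, -0.26 and 0.53, and the replicate block changed no other call.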

Other observations

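Among the marker lists, blood genes ranged from 198 to 1940 summed CPM in WT and from 145 to 1182 in KO, and genes of cornea and conjunctiva from 1167 to 7660 in WT and from 1604 to 8770 in KO, while Müller glia genes lay between 3059 and 3855 CPM and endothelial genes between 197 and 336 CPM over the 11 libraries. The markers with the extreme estimates were Alas2 (-0.61) and Hbb-bs (-0.75) for blood, Krt12 (0.52) and Krt14 (-0.69) for cornea and conjunctiva, and Kdr (0.21) and Pecam1 (-0.41) for endothelium, and none of these lists had a gene past the threshold.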
